A study of Mus musculus with 6 samples.

Results

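Caveolae are flask-shaped pits of the plasma membrane, and T-tubules are inward folds of the cardiomyocyte surface that carry the action potential to the sites of calcium release. The mRNAs examined here encode 9 proteins that give these membranes their shape: the caveolins Cav1, Cav2 and Cav3, the cavins Cavin1, Cavin2 and Cavin4, and the T-tubule and membrane-remodeling proteins Bin1, Dysf and Ehd4. They were chosen by gene name and joined to the counts by gene identifier. All 9 were found among the 56923 genes listed, and all 9 were among the 17212 genes with enough counts to be tested.

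The mRNA-Seq compared the left ventricle (LV) of 3 WT and 3 Lztr1 R409C/+ mice aged 12 weeks, and each mouse gave 1 library. LZTR1 is a BTB-Kelch protein that directs RAS subfamily proteins to degradation, and the mutant mice are heterozygous for the p.R409C substitution, which was knocked into the germline with CRISPR/Cas9 and is therefore carried by every cell of the heart. According to the methods, the line had been backcrossed to C57BL/6J, only males were studied, and the hearts were perfused with phosphate-buffered saline before collection. The labels name the tissue only as heart and the genotypes as wild-type and mutant, and they do not give the litter of any mouse. Whether the genotypes shared litters is therefore unknown. The p-values of edgeR weigh a difference against the spread between these 6 mice, which the fit moderates with that of other genes.

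Caveolin proteins insert into the inner leaflet of the membrane and oligomerize, and cavins assemble on them from the cytosol as a coat. Caveolin-3 and cavin-4 are the striated muscle members of their families, whereas caveolin-1, caveolin-2 and cavin-2 are abundant in endothelium, adipocytes and fibroblasts, so that LV RNA holds both sets. In myocytes, caveolin-3 and BIN1 are known for their part in forming and maintaining T-tubules, and dysferlin is known for resealing the injured sarcolemma.

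Each library held between 66130887 and 72641124 counts, and 3 counts corresponded to between 0.0317 and 0.0541 CPM (counts scaled to the effective library size), a floor that reflects counting error alone. The share of mitochondrially encoded transcripts was 13.8% in WT replicate 3 and 45.4% in Lztr1 R409C/+ replicate 1, against 29.7% to 37.3% in the other 4 mice. These libraries also had the highest and the lowest scaling factor, 1.39 and 0.800, respectively. Lztr1 mRNA, from the mutated gene, measured 24.2, 24.2, and 22.2 CPM in WT and 23.9, 27.9, and 25.3 CPM in Lztr1 R409C/+ mice, so the genotypes overlapped, and a substitution in the codon is not visible in gene counts.

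Marker genes were read as a check of the tissue. They can tell ventricle from atrium but hold no gene that separates the left from the right ventricle. The 8 cardiomyocyte markers summed to between 28661 and 42593 CPM, whereas 3 atrial markers (Myl7, Sln, and Myl4) summed to no more than 0.814 CPM and 3 skeletal muscle markers to no more than 0.331 CPM, with Myh4 at 0 to 3 counts. Summed endothelial markers were 597 to 764 CPM in WT and 525 to 827 CPM in Lztr1 R409C/+ mice. Cardiomyocyte, endothelial, fibroblast, and smooth muscle and pericyte sums all overlapped between the genotypes. Single markers within them were separated: Lum and Tcf21 of 6 fibroblast markers (log2 fold changes 0.61 and 0.54) and Emcn of 8 endothelial markers (0.40) were higher in every Lztr1 R409C/+ mouse. Myh11 and Tagln of 7 smooth muscle and pericyte markers (-0.71 and -0.65) and Ryr2 of 8 cardiomyocyte markers (-0.33) were lower. None of these 6 passed the test (adjusted p from 0.305 to 0.654, edgeR). Over all genes tested, 8.30% were separated in the higher and 7.23% in the lower direction. Each list went both ways. Fold changes were split 4 above to 2 below 0 for fibroblast and 6 to 2 for endothelial markers. They were split 3 to 4 for smooth muscle and pericyte and 2 to 6 for cardiomyocyte markers. The 7 macrophage markers did not overlap in their sum. They summed to 172 to 197 CPM in WT and 289 to 398 CPM in Lztr1 R409C/+ mice, all 7 were higher with an unadjusted p under 0.05, and C1qb passed the test (adjusted p = 0.0241, quasi-likelihood test of edgeR, Benjamini-Hochberg). C1qb missed the adjusted threshold when any 1 mouse was left out, when WT replicate 3 and Lztr1 R409C/+ replicate 1 both were, with the replicate number as a block, with library size only, and with the length correction (adjusted p from 0.0539 to 0.447, edgeR), and its log2 fold change was 1.01 to 1.23 over all 17 alternatives. The 4 erythroid markers summed to 575 to 1466 and 1032 to 2604 CPM and overlapped, although all 4 had log2 fold changes above 0 (median 0.94), 2 of them, Hba-a1 and Hba-a2, with an unadjusted p under 0.05 and none past the adjusted threshold, and the 4 adipocyte markers summed to no more than 0.249 CPM in any mouse. The part of these cells in the results below was not tested. In bulk RNA, fewer cells of a type and less RNA per cell cannot be told apart.

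None of the 9 genes differed between the genotypes at a false discovery rate of 0.05 by edgeR's quasi-likelihood test, and 0 of 9 had an unadjusted p under 0.05. Over all genes tested, the same test called 7 of 17212, which is 0.0407%, and an unadjusted p under 0.05 was reached by 5.77% of genes in the higher and 2.86% in the lower direction. DESeq2's Wald test and edgeR's exact test also called 0 of the 9 genes. Of the 17212 genes, the Wald test called 143 higher and 15 lower, and the exact test 127 and 13. The log2 fold change of Lztr1 R409C/+ over WT mice was above 0 for 6 genes and below 0 for 3, with a median of 0.07 beside 0.01 over all genes tested. This split was not stable: it was 2 above and 7 below with library size only (median -0.086), 4 and 5 with the length correction (median -0.0096), 4 and 5 without Lztr1 R409C/+ replicate 3 (median -0.095), and 4 and 5 without WT replicate 3 and Lztr1 R409C/+ replicate 1 together (median -0.0073). It moved the other way, to 7 above and 2 below (median 0.093), without Lztr1 R409C/+ replicate 1. It was 5 and 4 without WT replicate 2 (median 0.036) or without WT replicate 3 (median 0.018). The lowest adjusted p among the 9 genes was 0.599, shared by Cav2 and Cavin4. A p above the threshold does not show that the levels were equal, and the 95% intervals given for each gene below show which differences remain compatible with these 6 mice.

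**Figure D1:**
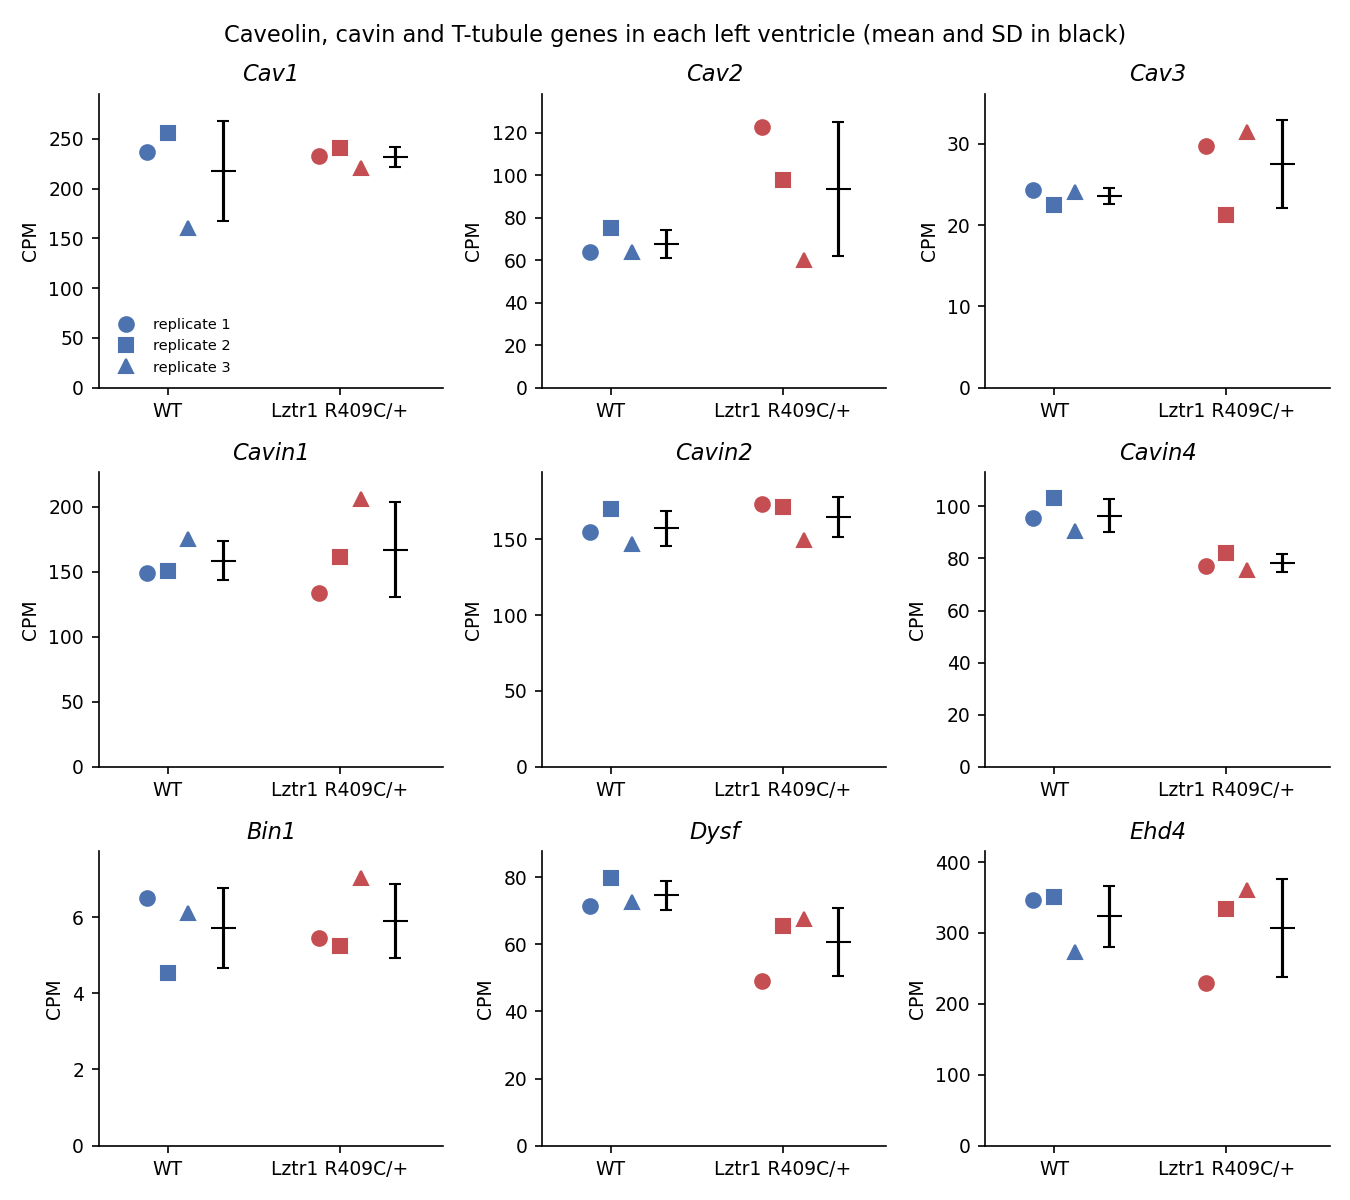
CPM of the 9 genes in each LV (y axis, from 0) for 3 WT mice (blue) and 3 Lztr1 R409C/+ mice (red), with the replicate shown by the marker shape and the mean and SD in black. The genotypes are separated for Cavin4 and Dysf, both lower in Lztr1 R409C/+ mice, and overlap for the other 7 genes.

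The plot of CPM by mouse shows that the groups were separated for Cavin4 and Dysf and for neither direction in the others. Thus 2 of 9 genes had every Lztr1 R409C/+ mouse below every WT mouse, and 0 of 9 had the reverse. Only 1 gene was separated in the lower direction with library size only, where Dysf overlapped, and only 1 with the length correction, while 1 was separated in the higher direction without Lztr1 R409C/+ replicate 2 or without WT replicate 3 and Lztr1 R409C/+ replicate 1 together, and 2 without Lztr1 R409C/+ replicate 3. Among all genes tested, 7.23% were separated in the lower and 8.30% in the higher direction. An exact permutation test of 3 mice against 3 cannot give a two-sided p below 0.1, which is the value that Cavin4 and Dysf reached.

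The caveolins were examined first. Cav1 and Cav2 lie next to each other on chromosome 6 (GRCm39), Cav2 at 17281026 to 17289877 and Cav1 at 17306140 to 17341451, both on the plus strand, with 16262 bases and no protein-coding gene between them. Cav3 lies farther along the same chromosome, at 112436466 to 112449833. Both caveolin-1 and caveolin-3 can build caveolae, in non-muscle and muscle cells, respectively, and caveolin-2 joins caveolin-1 in hetero-oligomers.

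Cav1 mRNA (ENSMUSG00000007655.17) measured 237, 256, and 161 CPM in WT replicates 1, 2, and 3 and 233, 241, and 221 CPM in Lztr1 R409C/+ replicates 1, 2, and 3. All 3 Lztr1 R409C/+ mice lay inside the WT range, whose lower end was set by WT replicate 3 alone. The means were 217.9 ± 50.4 and 231 ± 9.99 CPM (SD, n = 3 each), and the log2 fold change was 0.09 (SE 0.19, 95% interval -0.32 to 0.49, adjusted p = 0.930, edgeR). Without WT replicate 3, it was -0.09.

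Cav2 had the largest fold change of the 9 genes as reported, although that of Cavin4 was larger in size with library size only, with the length correction, without Lztr1 R409C/+ replicate 1, and with that mouse and WT replicate 3 both omitted. Cav2 mRNA (ENSMUSG00000000058.7) measured 63.7, 75.1, and 63.7 CPM in WT mice and 123, 97.7, and 60.0 CPM in Lztr1 R409C/+ mice. Lztr1 R409C/+ replicates 1 and 2 lay above all WT mice, but replicate 3 lay below them. The means were 67.5 ± 6.58 and 93.4 ± 31.4 CPM, a log2 fold change of 0.47 (SE 0.23, 95% interval -0.02 to 0.96, unadjusted p = 0.0591, adjusted p = 0.599, edgeR). This value was decided by single mice, since omitting Lztr1 R409C/+ replicate 3 gave 0.71 (adjusted p = 0.362, edgeR) and omitting Lztr1 R409C/+ replicate 1 gave 0.22. Per 1000 CPM of endothelial markers, Cav2 stood at 89.7, 98.2, and 106.6 CPM in WT and 233.5, 136, and 72.6 CPM in Lztr1 R409C/+ mice, which overlapped in the same way.

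Cav3 mRNA (ENSMUSG00000062694.8) measured 24.3, 22.4, and 24.0 CPM in WT and 29.8, 21.3, and 31.4 CPM in Lztr1 R409C/+ mice. The WT mice were close to each other, and the Lztr1 R409C/+ mice lay on both sides of them. The means were 23.6 ± 0.985 and 27.5 ± 5.43 CPM, and the log2 fold change was 0.22 (SE 0.17, 95% interval -0.16 to 0.60, adjusted p = 0.771, edgeR). It was 0.37 without Lztr1 R409C/+ replicate 2, 0.11 without Lztr1 R409C/+ replicate 3, 0.06 with scaling by library size only, and 0.02 with the correction for gene length.

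The 2 chromosomal neighbors were not highest or lowest in the same mice. Cav2 was highest in Lztr1 R409C/+ replicate 1 and lowest in Lztr1 R409C/+ replicate 3, whereas Cav1 was highest in WT replicate 2 and lowest in WT replicate 3. Per base of exon, the ratio of Cav2 to Cav1 in the same library was 0.313, 0.340, and 0.460 in WT, compared with 0.611, 0.472, and 0.316 in Lztr1 R409C/+ mice, a mean log2 difference of 0.30 (two-sided exact permutation p = 0.4, 0.8 after Benjamini-Hochberg adjustment over 4 ratios). The ratio of Cav3 to Cav1, the muscle over the non-muscle isoform, was 0.398, 0.340, and 0.579 in WT, compared with 0.496, 0.344, and 0.552 in Lztr1 R409C/+ mice, with a mean log2 difference of 0.09 (exact permutation p = 0.9, adjusted 1). Single mice moved both values: the log2 difference of Cav2 to Cav1 was 0.08 without Lztr1 R409C/+ replicate 1, 0.19 without WT replicate 1, 0.46 without WT replicate 3, and 0.55 without Lztr1 R409C/+ replicate 3. That of Cav3 to Cav1 ran from -0.08 without WT replicate 2 and -0.05 without Lztr1 R409C/+ replicate 3 to 0.29 without Lztr1 R409C/+ replicate 2 and 0.31 without WT replicate 3. Such ratios do not depend on the scaling between libraries. They can still depend on gene length, as Cav3 has 1287 and Cav1 4993 exon bases, and they were not read with the length correction.

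The sequences just upstream of the first annotated base are shown for the 3 caveolins and for Cavin4, because they place the start regions of the neighboring pair and of the muscle isoforms side by side. Each line gives the 200 bases before the start, 5′ to 3′ on the plus strand of GRCm39. They cover chr6:17305940-17306139 for Cav1, chr6:17280826-17281025 for Cav2, chr6:112436266-112436465 for Cav3, and chr4:48663303-48663502 for Cavin4. Capitals mark matches to the letters CANNTG (E-box, the motif of basic helix-loop-helix factors) or TATAAA (the core promoter box bound by the TATA-binding protein), searched on both strands.
Cav1: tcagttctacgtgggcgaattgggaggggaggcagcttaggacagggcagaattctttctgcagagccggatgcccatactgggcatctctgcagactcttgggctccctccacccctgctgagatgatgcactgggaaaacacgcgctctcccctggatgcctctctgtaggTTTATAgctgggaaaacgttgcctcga
Cav2: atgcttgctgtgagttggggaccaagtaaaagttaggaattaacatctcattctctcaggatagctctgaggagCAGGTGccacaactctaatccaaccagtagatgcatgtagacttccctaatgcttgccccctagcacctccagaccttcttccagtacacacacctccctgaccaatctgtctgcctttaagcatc
Cav3: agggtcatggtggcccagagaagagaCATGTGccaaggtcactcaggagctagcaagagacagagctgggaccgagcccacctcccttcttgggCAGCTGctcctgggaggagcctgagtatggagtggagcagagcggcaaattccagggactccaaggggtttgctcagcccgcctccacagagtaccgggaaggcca
Cavin4: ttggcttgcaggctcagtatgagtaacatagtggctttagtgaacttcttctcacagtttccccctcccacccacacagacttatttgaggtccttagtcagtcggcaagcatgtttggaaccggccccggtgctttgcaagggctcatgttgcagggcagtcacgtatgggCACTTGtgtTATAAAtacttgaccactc
The Cav1 window matched TATAAA only on the minus strand, opposite to the gene, 27 to 22 bases before the start, and held no E-box. Cav2 had an E-box at -126 to -121, and Cav3 had 2, at -174 to -169 and -106 to -101. Cavin4 had an E-box at -28 to -23 followed by a TATA box at -19 to -14. Among 21757 windows of the same length upstream of protein-coding genes, 57.8% held an E-box and 10.1% a TATA box, so that an E-box is common at any gene. The letters CATTCC (MCAT) and the MEF2 and CArG motifs, held by 9.89%, 2.37%, and 1.12% of windows, had no match in these 4 windows, and the window of Dysf held 2 matches to the MEF2 motif, at -174 to -165 and -162 to -153. The GC content was 56.5% for Cav1, 48% for Cav2, 61% for Cav3, and 50% for Cavin4, with a median of 52% over all windows. These matches describe the sequence only, and neither binding nor the start used in the heart was measured.

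Cavins were examined next. Cavin-1 is required for caveolae in all cell types, cavin-2 takes part in shaping them, and cavin-4 is found in cardiac and skeletal muscle at caveolae and T-tubules.

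Cavin1 mRNA (ENSMUSG00000004044.10, chromosome 11, 100847559 to 100861713) measured 149, 151, and 176 CPM in WT and 134, 162, and 206 CPM in Lztr1 R409C/+ mice. The Lztr1 R409C/+ mice held both the lowest and the highest value. Its log2 fold change was 0.08 (SE 0.18, 95% interval -0.32 to 0.47, adjusted p = 0.939, edgeR), and it moved with single mice, to 0.20 without Lztr1 R409C/+ replicate 1, 0.15 without WT replicate 3, and -0.10 without Lztr1 R409C/+ replicate 3. The antisense lncRNA Gm57383 overlaps Cavin1 and had 92 to 256 counts per mouse, while Cavin1 had 7427 to 16636. The library kit was not stated to keep strand, so reads of the 2 genes cannot be told apart where they overlap.

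Cavin2 mRNA (ENSMUSG00000045954.8, chromosome 1, 51328266 to 51345710) measured 155, 170.0, and 147 CPM in WT and 173, 172, and 149.5 CPM in Lztr1 R409C/+ mice. All 6 mice were close to each other, with the spread within a genotype larger than the difference between them. Its log2 fold change was 0.07 (SE 0.15, 95% interval -0.26 to 0.40, adjusted p = 0.935, edgeR).

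Cavin4 mRNA (ENSMUSG00000028348.8, chromosome 4, 48663503 to 48674045) measured 95.4, 103, and 90.7 CPM in WT and 77.3, 82.2, and 75.7 CPM in Lztr1 R409C/+ mice. Every Lztr1 R409C/+ mouse was below every WT mouse, and both groups were tight. The means were 96.4 ± 6.33 and 78.4 ± 3.41 CPM, a log2 fold change of -0.30 (SE 0.15, 95% interval -0.62 to 0.02, unadjusted p = 0.0619, adjusted p = 0.599, edgeR). It stayed below 0 in all 17 alternatives of processing and sample choice, between -0.46 and -0.25, and never passed the adjusted threshold, with adjusted p between 0.487 and 0.976. The summed cardiomyocyte markers were 42593, 39919.7, and 38200.4 CPM in WT and 28661, 35868, and 40886 CPM in Lztr1 R409C/+ mice. Myh6 was the largest of them, at 17348, 14162, and 14121 CPM in WT and 6330, 11876, and 16622 CPM in Lztr1 R409C/+ mice. In Lztr1 R409C/+ replicate 1, Myh6, Actc1, Actn2, and Ryr2 lay below all WT mice, and Tnnt2, Tnni3, Myl2, and Pln did not. Per 1000 CPM of the summed markers, Cavin4 stood at 2.24, 2.59, and 2.37 CPM in WT and 2.70, 2.29, and 1.85 CPM in Lztr1 R409C/+ mice, and the genotypes overlapped. Whether myocyte content has a part in the Cavin4 level was not tested.

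Within a library, the makeup of the cavins can be given without any scaling. Of the counts per base of exon of Cavin1, Cavin2, and Cavin4 together, Cavin4 made up 42.0%, 42.8%, and 39.1% in WT, compared with 37.1%, 36.3%, and 32.5% in Lztr1 R409C/+ mice. The genotypes did not overlap in this share, whose means were 41.3% ± 1.96 and 35.3% ± 2.47 (SD, n = 3 each). The shares were not among the planned comparisons and were not tested. They use the same counts in which Cavin4 CPM was already separated, and they were not read with the length correction. With the length of the canonical transcript in place of all exons, the shares were 35.6%, 36.6%, and 32.5% against 31.5%, 30.4%, and 26.3%, without overlap. Only the lengths differ here, so this is the same result on another scale. Cavin3, which was low in all mice, is not part of these shares. The shares of Cavin1 (30.6% to 37.0% in WT and 31.5% to 43.3% in Lztr1 R409C/+ mice) and of Cavin2 (23.9% to 26.7% and 24.3% to 31.5%) overlapped. The ratio of Cavin4 to Cavin1 alone was 1.30, 1.40, and 1.05 in WT, compared with 1.18, 1.04, and 0.750 in Lztr1 R409C/+ mice, which overlapped (mean log2 difference -0.36, exact permutation p = 0.2, adjusted 0.8), leaving out 1 mouse in turn gave -0.49 to -0.17, the latter without Lztr1 R409C/+ replicate 3, and leaving out WT replicate 3 and Lztr1 R409C/+ replicate 1 together gave -0.61. The ratio of Cavin2 to Cavin1 ranged from 0.646 to 0.872 in WT and from 0.561 to 0.999 in Lztr1 R409C/+ mice (exact permutation p = 1, adjusted 1), and its log2 difference was -0.18 without Lztr1 R409C/+ replicate 1, 0.24 without Lztr1 R409C/+ replicate 3, and -0.30 without WT replicate 3 and Lztr1 R409C/+ replicate 1 together.

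**Figure D2:**
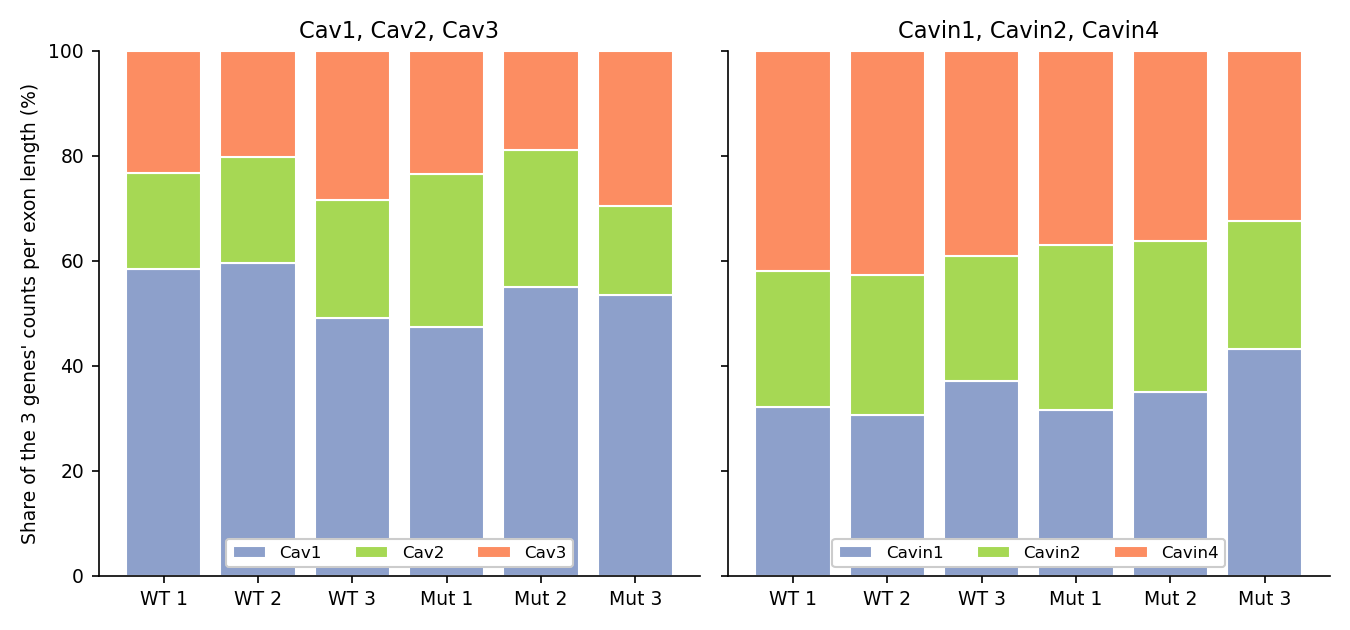
Share of each gene (y axis, percent) in the counts per base of exon of the 3 caveolins (left) and of Cavin1, Cavin2, and Cavin4 (right), with 1 stacked bar per mouse. The Cavin4 share is at least 39.1% in the 3 WT mice and at most 37.1% in the 3 Lztr1 R409C/+ mice, while all 3 caveolin shares overlap.

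The caveolin makeup in the stacked bars showed no such separation. Cav1 made up 49.0% to 59.5% of the caveolin counts per base in WT and 47.5% to 55.1% in Lztr1 R409C/+ mice. Cav2 made up 18.3% to 22.6% and 16.9% to 29.0%, respectively. Cav3 made up 20.2% to 28.4% and 18.9% to 29.6%, and in every mouse the muscle caveolin was below Cav1 on this scale.

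The T-tubule and remodeling genes were examined last. BIN1 is a BAR-domain protein that bends membranes into tubules, dysferlin is a C2-domain protein of the sarcolemma and T-tubules, and EHD4 is an ATPase that remodels endosomal and plasma membranes. Bin1 mRNA (ENSMUSG00000024381.17, chromosome 18, 32509621 to 32571547) measured 6.49, 4.52, and 6.11 CPM in WT and 5.45, 5.24, and 7.02 CPM in Lztr1 R409C/+ mice. The groups overlapped between 5.24 and 6.49 CPM. The log2 fold change was 0.05 (SE 0.22, 95% interval -0.44 to 0.54, adjusted p = 0.970, edgeR). It was -0.10 without WT replicate 2, -0.10 without Lztr1 R409C/+ replicate 3, and 0.15 without WT replicate 1. Bin1 was the least abundant of the 9 genes, with 291 to 579 counts per mouse. It has 98 annotated transcripts, and counts per gene do not separate the cardiac isoforms.

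Dysf mRNA (ENSMUSG00000033788.16, chromosome 6, 83985345 to 84188042) measured 71.4, 79.6, and 72.6 CPM in WT and 48.9, 65.4, and 67.4 CPM in Lztr1 R409C/+ mice. Every Lztr1 R409C/+ mouse was below every WT mouse on the TMM scale, although not with library size only, and replicate 1 was lowest by a wide gap. The means were 74.5 ± 4.43 and 60.6 ± 10.1 CPM, a log2 fold change of -0.30 (SE 0.16, 95% interval -0.66 to 0.06, unadjusted p = 0.0936, adjusted p = 0.648, edgeR). Without Lztr1 R409C/+ replicate 1, which had the largest mitochondrial share, the log2 fold change was -0.17, and over all 17 alternatives it ranged from -0.43 to -0.17. Per 1000 CPM of cardiomyocyte markers, Dysf stood at 1.68, 1.99, and 1.90 CPM in WT and 1.71, 1.82, and 1.65 CPM in Lztr1 R409C/+ mice, which overlapped. Per 1000 CPM of endothelial markers, it stood at 101 to 122 CPM in WT and 81.5 to 93.3 CPM in Lztr1 R409C/+ mice and did not overlap. No other gene of the set was separated on either marker scale. The share of all genes separated on these scales was not taken, and no test was made on them.

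Ehd4 mRNA (ENSMUSG00000027293.14, chromosome 2, 119919654 to 119985092) measured 346, 351, and 273 CPM in WT and 229, 333, and 360.0 CPM in Lztr1 R409C/+ mice. The lowest value came from Lztr1 R409C/+ replicate 1 and the highest from Lztr1 R409C/+ replicate 3. The log2 fold change was -0.07 (SE 0.20, 95% interval -0.50 to 0.35, adjusted p = 0.946, edgeR), and it was 0.09 without Lztr1 R409C/+ replicate 1.

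Levels were compared between genes only per kilobase of exon. In WT mice, Ehd4 was highest at 73.2 ± 9.82 CPM per kb, followed by Cav1 at 43.6 ± 10.1, Cavin4 at 37.0 ± 2.43, and Cavin1 at 29.8 ± 2.77 (SD, n = 3). Cavin2 at 22.8 ± 1.71, Cav3 at 18.3 ± 0.765, and Cav2 at 15.7 ± 1.53 CPM per kb came next, and Dysf at 6.48 ± 0.386 and Bin1 at 0.642 ± 0.118 CPM per kb were lowest. The WT mice overlapped between Cav1 and Cavin4 and between Cav3 and Cav2, and did not overlap between any other neighbors in this order. Lztr1 R409C/+ mice had the same order except for 2 exchanges: Cavin1 (31.4 ± 6.81) over Cavin4 (30.1 ± 1.31) and Cav2 (21.7 ± 7.32) over Cav3 (21.4 ± 4.22). The mice overlapped in both pairs, and Lztr1 R409C/+ replicate 3 went against the others, with Cavin1 above Cavin4 and Cav2 below Cav3 in the same library. The order of Cavin1 and Cavin4 depends on the length used: per kilobase of the canonical transcript, Cavin1 at 45.4 was above Cavin4 at 37.0 CPM per kb in WT mice as well. So does the gap between Ehd4 and Cav1, which stood at 86.5 ± 11.6 and 76.6 ± 17.7 CPM per kb of the canonical transcript in WT mice.

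No mouse was at the same end of the range for all 9 genes. Lztr1 R409C/+ replicate 1 held the lowest level of 3 genes and the highest of 2, and Lztr1 R409C/+ replicate 3 held the lowest of 2 and the highest of 4. WT replicate 3 held the lowest level of 2 genes, WT replicate 2 the lowest of 1 and the highest of 3, Lztr1 R409C/+ replicate 2 the lowest of 1, and WT replicate 1 no extreme.

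Other genes of the same membranes were then read from a list of 19: caveola neck, coat, and flotillin genes (Cavin3, Ehd1, Ehd2, Ehd3, Pacsin2, Pacsin3, Dnm2, Flot1, and Flot2), T-tubule and junction genes (Jph1, Jph2, Tcap, and Mtm1), and membrane repair genes (Trim72, Myof, Anxa1, Anxa2, Anxa5, and Anxa6). All 19 were tested, and none passed the false discovery rate of 0.05 by edgeR's quasi-likelihood test. Their log2 fold change was above 0 for 12 genes and below 0 for 7, with a median of 0.04. Without adjustment, 1 gene had p under 0.05 in the higher and 2 in the lower direction, beside 5.77% and 2.86% of all genes tested. The caveola genes were split 8 above to 1 below 0, the T-tubule and junction genes 1 to 3, and the repair genes 3 to 3. Over all genes tested, 8853 lay above and 8359 below 0. These splits were read with TMM scaling only.

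Myof, which encodes the dysferlin paralog myoferlin, measured 5.90, 6.43, and 6.21 CPM in WT and 8.39, 8.01, and 10.1 CPM in Lztr1 R409C/+ mice. The groups did not overlap, and the log2 fold change was 0.51 (SE 0.19, unadjusted p = 0.0177, adjusted p = 0.488, edgeR).

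Mtm1, which encodes the phosphoinositide phosphatase myotubularin, measured 26.5, 26.4, and 31.6 CPM in WT and 18.5, 25.3, and 17.0 CPM in Lztr1 R409C/+ mice, without overlap (log2 fold change -0.47, SE 0.18, unadjusted p = 0.0235, adjusted p = 0.514, edgeR). Jph1, which encodes a junctophilin that ties the sarcoplasmic reticulum to the surface membrane, measured 24.8, 21.7, and 29.2 CPM in WT and 22.0, 17.7, and 16.2 CPM in Lztr1 R409C/+ mice (log2 fold change -0.44, SE 0.18, unadjusted p = 0.0305, adjusted p = 0.533, edgeR). In Jph1, Lztr1 R409C/+ replicate 1 lay just above WT replicate 2, so the groups overlapped. Groups also did not overlap for Cavin3 (8.96 ± 0.900 CPM in WT and 11.5 ± 2.22 CPM in Lztr1 R409C/+ mice) and Anxa2 (30.1 ± 2.25 and 36.0 ± 3.66 CPM), both higher in Lztr1 R409C/+ mice, with unadjusted p of 0.0866 and 0.117 by edgeR. In all, 3 of 19 genes were separated in the higher and 1 in the lower direction, beside 8.30% and 7.23% of all genes tested.

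**Figure D3:**
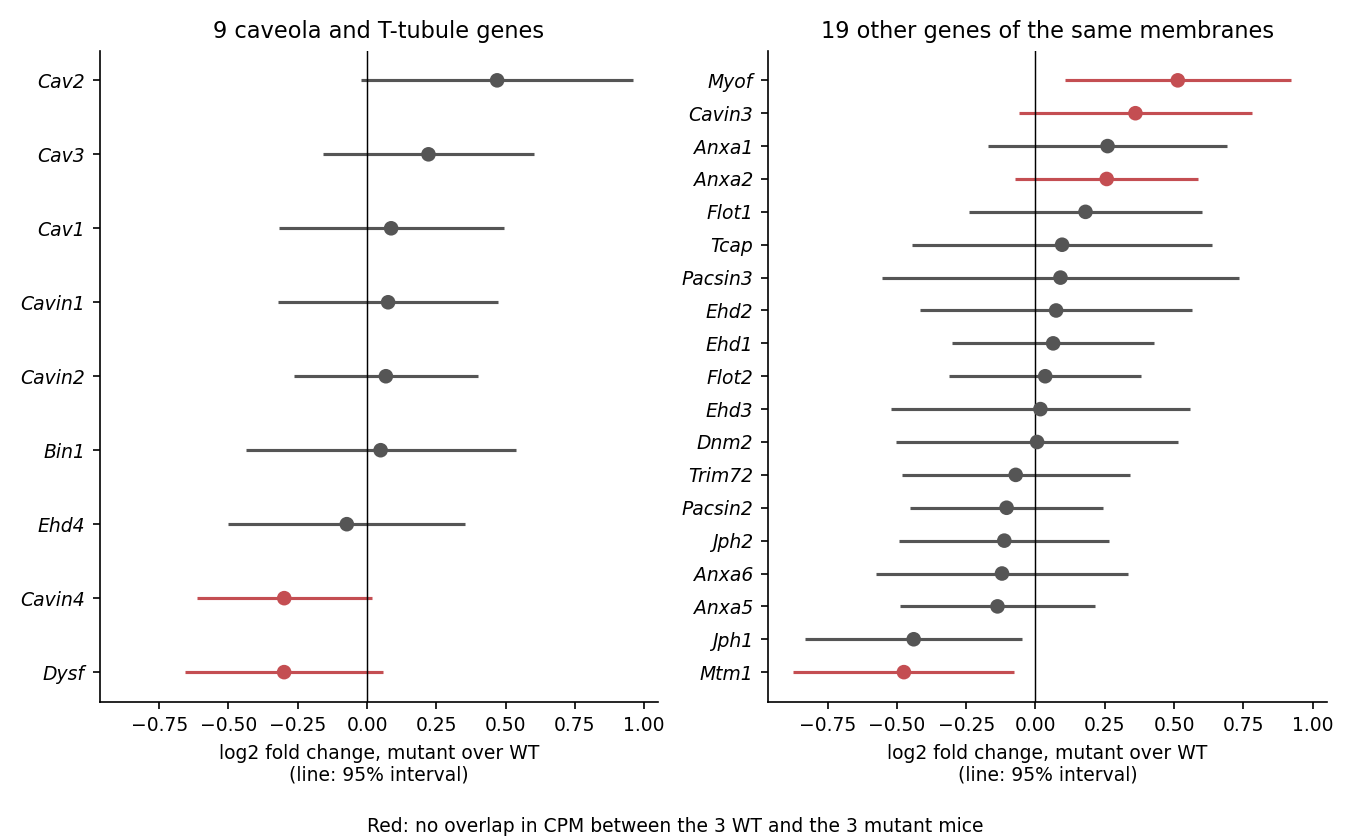
Log2 fold change of Lztr1 R409C/+ over WT mice (x axis) with its 95% interval for the 9 genes (left) and 19 other genes of the same membranes (right), in red where the genotypes do not overlap in CPM. All 9 intervals on the left include 0, and on the right those of Myof, Mtm1, and Jph1 do not.

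The plot of fold changes places Cavin4 and Dysf at the lower and Cav2 at the upper end of the 9 genes. Intervals of all 9 genes included 0, and the farthest ends were 0.96 for Cav2 and -0.66 for Dysf on the log2 scale.

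**Figure D4:**
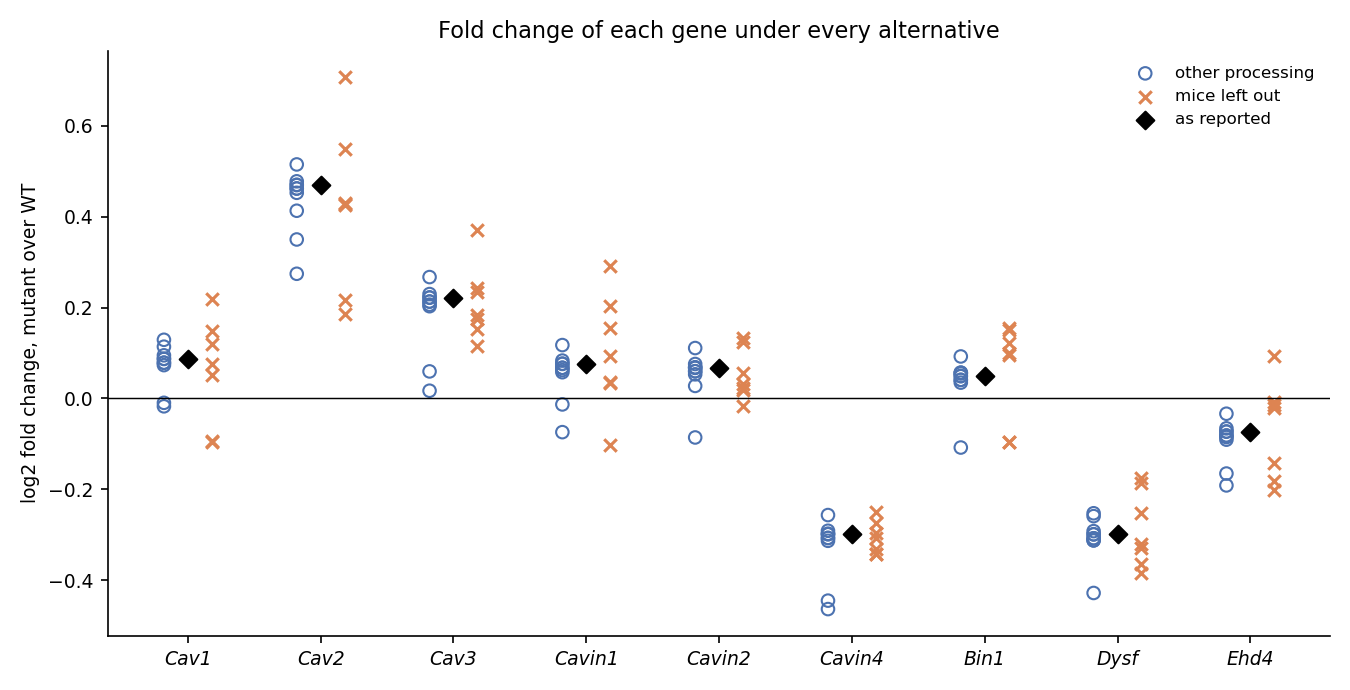
Log2 fold change of each of the 9 genes (y axis) as reported (diamond), under other processing (circles), and with mice left out (crosses). Cavin4 and Dysf lie below 0 and Cav2 and Cav3 above 0 under every alternative, while Cav1, Cavin1, Cavin2, Bin1, and Ehd4 cross 0.

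In the plot of alternatives, Cav2, Cav3, Cavin4, and Dysf kept their sign in all 17 alternatives, and none of the 9 genes passed the adjusted threshold in any of them. Cav2 covered the widest range, from 0.19 to 0.71. Cav1 changed sign in 4 alternatives, Cavin1 and Bin1 in 3 each, Cavin2 in 2, and Ehd4 in 1.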

How the data were processed

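The authors deposited counts per gene as whole numbers without normalization, made from mRNA-Seq of LV RNA by Trim Galore trimming, HISAT2 alignment to GRCm39, and StringTie. Versions and the annotation release are not given in the sources used here. They also deposited a table of their own edgeR comparison (log2 fold changes, average log2 CPM, p-values, and adjusted p-values), of which only the gene names were used.

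Genotypes came from the sample labels. Positions and exon lengths came from GENCODE M39 (GRCm39), which held 56236 of the 56923 identifiers. In R 4.3.3, edgeR 4.0.16 was run with filterByExpr, TMM scaling, and the robust quasi-likelihood test, with p-values adjusted by Benjamini-Hochberg over all 17212 genes left (two-sided, threshold 0.05). CPM values are TMM-scaled. Ratios of paralogs were compared by exact permutation of 3 mice against 3. A motif was searched in the 200 bases upstream of each gene. Scripts were tested on simulated data.

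All 9 genes are named, and of the 19 others those with an unadjusted p under 0.05 and the lowest p in each direction. Cavin3 and Anxa2 were named after their values were seen. The genes and lists were chosen with earlier results of these data known. Alternatives were other scalings, DESeq2 1.42.0, edgeR's exact test, other filters, removal of mitochondrially encoded genes, a length correction, a replicate block, and leaving out mice. The labels do not say whether replicate numbers pair the mice. Same-numbered mice had correlations of -0.03, 0.06, and -0.10 in their deviations from the group means, and the other pairs -0.08 to 0.09. Such values cannot exclude a shared litter or batch.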

Additional observations from a re-analysis of the deposited data

How the results depend on the processing

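None of the 9 genes passed the adjusted threshold in any of 17 alternatives, and the direction held in all of them for Cav2, Cav3, Cavin4, and Dysf. With scaling by library size only, the median log2 fold change of all genes moved from 0.01 to -0.14, and Cav1 was -0.017, Cavin1 -0.074, Cavin2 -0.086, and Bin1 -0.11, with 1 gene separated in the lower direction in place of 2, since Dysf then overlapped. With upper quartile scaling, with DESeq2's Wald test, without a filter, or when every mouse had to reach 10 counts, 1 gene (Cav2) had an unadjusted p under 0.05 in the higher direction. The length correction gave Cav1 -0.0096 and Cavin1 -0.013, 1 gene (Cavin4) with an unadjusted p under 0.05 in the lower direction, and 1 separated gene. Leaving out 1 mouse in turn gave log2 fold changes of -0.093 to 0.22 for Cav1, -0.10 to 0.20 for Cavin1, -0.10 to 0.15 for Bin1, and -0.20 to 0.093 for Ehd4, with no change of sign for Cav2 (0.22 to 0.71), Cav3 (0.11 to 0.37), Cavin2 (0.02 to 0.13), Cavin4 (-0.34 to -0.25), and Dysf (-0.38 to -0.17). It gave 0 to 1 genes with an unadjusted p under 0.05 in either direction and 0 to 2 separated in the higher direction. Leaving out WT replicate 3 and Lztr1 R409C/+ replicate 1 together, chosen after seeing the data, gave Cav1 -0.10 and Cavin2 -0.017, 1 gene with an unadjusted p under 0.05 in the lower direction, and 1 gene separated in the higher direction. The share of all genes that were separated was not taken for any alternative. The cause of these moves was not tested. With the replicate block, 0 of the 9 genes were called, with a lowest adjusted p of 0.743 by edgeR.

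Over all genes, the count of calls, 6 higher and 1 lower, became 143 and 15 by DESeq2's Wald test, 127 and 13 by edgeR's exact test, 19 and 1 without a filter, 15 and 6 with library size only, 5 and 0 with at least 10 counts, 1 and 1 with the length correction, and 0 and 1 with the replicate block. It was 1 to 3 and 1 to 2 without 1 mouse, and 0 and 1 without both mice. The number of mice and the gene-level counts limit these results: counts per mouse were at least 291 for each of the 9 genes.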
